A study of Mus musculus with 24 samples.

Results

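The genes described here are 45 genes of the p53 pathway: Trp53 itself, the genes that control it, and genes known as its transcriptional targets. They were taken as a list, by name, from the deposited table of read counts, which holds 47480 genes. All 45 were found in the table, 1 of them, Dda3, under its symbol Psrc1. Cop1, the gene targeted in the study and no member of the list, stands there as Rfwd2. Of the 45 members, 44 had enough reads to be tested, among 14772 genes tested in all. The remaining member, Trp73, a relative of Trp53, had 1 to 11 reads per library and was not tested.

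The study profiled mRNA of wild-type mouse embryonic fibroblasts, primary connective tissue cells of the mouse embryo, in 24 libraries. The design crossed 3 factors of 2 levels each, giving 8 groups of 3 libraries. The labels siCTRL and siCop1 are read as a control siRNA and an siRNA that targets Cop1 mRNA. They were further exposed to the solvent DMSO or to KL001, a compound known to slow the degradation of cryptochromes, which repress transcription in the circadian clock, and were left without or given Dexa, kept here as it is labelled. The 4 siCTRL groups were DMSO without Dexa, DMSO with Dexa, KL001 without Dexa and KL001 with Dexa, and the 4 siCop1 groups were the same. The sources used here give neither doses nor times of exposure. Nothing in the labels says whether the 3 libraries of a group came from separate cultures, so the p-values measure only the spread between these libraries, which may be technical.

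As background, p53 is a transcription factor that is held at a low level in unstressed cells because ubiquitin ligases mark it for degradation. Mdm2 is the main such ligase and is itself a p53 target, which closes a feedback loop, and Cop1 has been described as another ligase for p53. Stabilised p53 switches on genes that stop the cell cycle, such as Cdkn1a, genes that promote cell death, such as Bax and Bbc3, and genes of DNA repair and metabolism. The siCop1 comparisons therefore ask whether p53 targets rise when Cop1 mRNA is depleted. All values are mRNA levels; p53 protein was not measured in these files.

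Library totals ran from 21409988 to 27875023 counts. Levels are CPM, counts scaled to a common library total by TMM, in which each library total is adjusted by a factor between 0.976 and 1.029. "Called" means an adjusted p below 0.05 in edgeR's quasi-likelihood test over all 14772 genes with Benjamini-Hochberg adjustment, and rose, fell, higher and lower are used of called genes. Fold changes are log2 values ± SE. Cop1 mRNA lay between 24.99 and 29.72 CPM in the 12 siCTRL libraries and between 4.329 and 5.787 CPM in the 12 siCop1 libraries. It fell in all 4 settings, DMSO without Dexa, DMSO with Dexa, KL001 without Dexa and KL001 with Dexa, with changes of -83.1%, -82.0%, -81.5% and -82.7%. This order of settings is kept below. In these bulk libraries, fewer cells of a type and less RNA per cell cannot be told apart. Markers of fibroblasts, 10 genes including Col1a1 and Vim, summed to between 41080 and 58360 CPM per library, and none was at 0. This sum was lower in siCop1 than in siCTRL in every setting without overlap, at 48550 to 50060 against 54980 to 58360 CPM, 46420 to 48030 against 53290 to 54150 CPM, 42240 to 43680 against 48000 to 52610 CPM, and 41080 to 43130 against 46870 to 49010 CPM in the order of settings above. Not every fibroblast marker went the way of the sum. In DMSO without Dexa, Col1a1 was at 21670 to 23500 CPM in siCTRL and 17810 to 18640 CPM in siCop1. Vim was there at 4705 to 4742 CPM in siCTRL and 4865 to 5013 CPM in siCop1. Vim was also above siCTRL in both KL001 settings, and its groups overlapped in DMSO with Dexa. RNA of other cell types was uneven. Summed over 6 heart muscle markers, siCTRL libraries held 0.678 to 89.6 CPM, with all 3 DMSO libraries without Dexa and replicate 2 of each other siCTRL group at 16.75 CPM or more, whereas siCop1 libraries held 0.725 to 2.721 CPM. Summed over 7 squamous epithelium markers, replicate 1 of the siCop1 DMSO group with Dexa held 84.84 CPM, and the other 23 libraries held 7.775 to 33.39 CPM. Macrophage markers summed to 2.551 to 7.36 CPM in siCTRL and 4.322 to 15.1 CPM in siCop1 libraries. These markers did not move together. Lyz2 was at 0.3292 to 2.632 CPM in siCTRL and 0.708 to 11.3 CPM in siCop1. Csf1r was at 0.3292 to 1.727 CPM in siCTRL and 0.3254 to 1.169 CPM in siCop1. In DMSO without Dexa every siCTRL library held more heart muscle RNA than every siCop1 library, so there siCop1 and this RNA cannot be told apart. In the other settings 4 libraries lay above 10 CPM of heart muscle or 50 CPM of squamous markers, siCTRL replicate 2 of each and siCop1 replicate 1 of DMSO with Dexa. They are called the 4 marker-rich libraries, and calls of the genes described that ended without them are given beside the results. Leaving them out keeps the siCTRL DMSO libraries without Dexa, at 16.75 to 58.62 CPM of heart muscle markers. The siCTRL libraries then left in KL001 without Dexa and in DMSO with Dexa held at most 1.245 CPM. In these siCTRL comparisons, KL001 or Dexa and heart muscle RNA therefore cannot be told apart in that fit. The part of the macrophage and fibroblast markers was not tested.

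The members spanned a wide range of expression. The mean over all 24 libraries had a median of 37.92 CPM over the 44 members tested, beside 25.52 CPM over all genes tested, and ran from 2.588 CPM for Trp53i11 to 416.1 CPM for Cdkn2a. Per kilobase of annotated exon, the scale on which genes can be compared, Cdkn2a was at 355 CPM, Bax at 52.4, Trp53 at 35.1, Cdkn1a at 27.3, Mdm2 at 14.8 and Trp53i11 at 0.701.

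Cdkn1a encodes p21, the inhibitor of cyclin-dependent kinases through which p53 arrests the cell cycle. It lies on the forward strand of chromosome 17 at chr17:29090976-29100727 in GRCm38, the build named in the submitters' processing notes. The 250 bases before its annotated RefSeq start (GRCm38.p6, forward strand, chr17:29090729-29090978) are shown because this was the only window of a member that matched the p53 response element as searched here. The capitals mark the match, which runs from 73 to 42 bases before the start. Sites that depart from the searched pattern were not looked for, so bases beside the capitals may belong to a p53 element too.
Cdkn1a upstream: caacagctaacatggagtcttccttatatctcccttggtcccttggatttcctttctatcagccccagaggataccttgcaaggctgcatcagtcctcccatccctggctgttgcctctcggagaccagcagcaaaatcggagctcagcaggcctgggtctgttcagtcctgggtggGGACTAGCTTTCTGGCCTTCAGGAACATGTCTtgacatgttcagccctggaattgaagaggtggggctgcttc
The p53 response element was searched on both strands as a pair of decamers, each 10 bases, with a gap of 0 to 13 bases between them. It stood in 1 of 50 promoter windows of 300 bases, which covered 38 of the 45 members, or 2%, and in 24 of 32851 windows of all genes, or 0.0731%. Many known p53 elements lie farther from the start or inside introns, so these windows hold only a part of them. Of 2 other motifs searched on both strands, the E-box CACGTG stood in 16% of member windows and 7.15% of all windows, and the AP-1 site TGANTCA in 4% and 7.81%. The glucocorticoid element stood in 0 of 50 member windows, or 0%, and in 0.475% of all windows. With so low a share over all windows, 50 windows are too few to show a difference. The members without a window include Perp, Pmaip1 and Trp53inp1, described below with Dexa. These matches are letters in the sequence and say nothing of binding.

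Depletion of Cop1 was not followed by a general rise of p53 targets. In DMSO without Dexa, 19 of the 44 members were called, or 43.2%, beside 29.4% of all genes tested, and 14 of the 19 were lower. In DMSO with Dexa, 20 were called (45.5%, beside 31.1%), 15 of them lower. In KL001 without Dexa, 26 were called (59.1%, beside 32.7%), 18 of them lower, and in KL001 with Dexa 23 were called (52.3%, beside 30.1%), again 18 lower. The share of members that were lower was 31.8%, 34.1%, 40.9% and 40.9% in this order, beside 16.6%, 16.7%, 18.2% and 16.3% of all genes. The share that were higher was 11.4%, 11.4%, 18.2% and 11.4%, beside 12.8%, 14.4%, 14.5% and 13.7%. Among the 12468 genes with a mean of at least 1 CPM, closer to the members in level, 33.4%, 35.3%, 37.1% and 34.3% were called in either direction. The median log2 change over the 44 members was -0.037, -0.060, -0.056 and -0.097, beside -0.010, 0.001, -0.007 and -0.002 over all genes. Of the 44 members, called or not, 29, 30, 28 and 33 had a log2 change below 0, a count not made for all genes. Whether a few members or many small changes lowered the median was not tested.

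**Figure D1:**
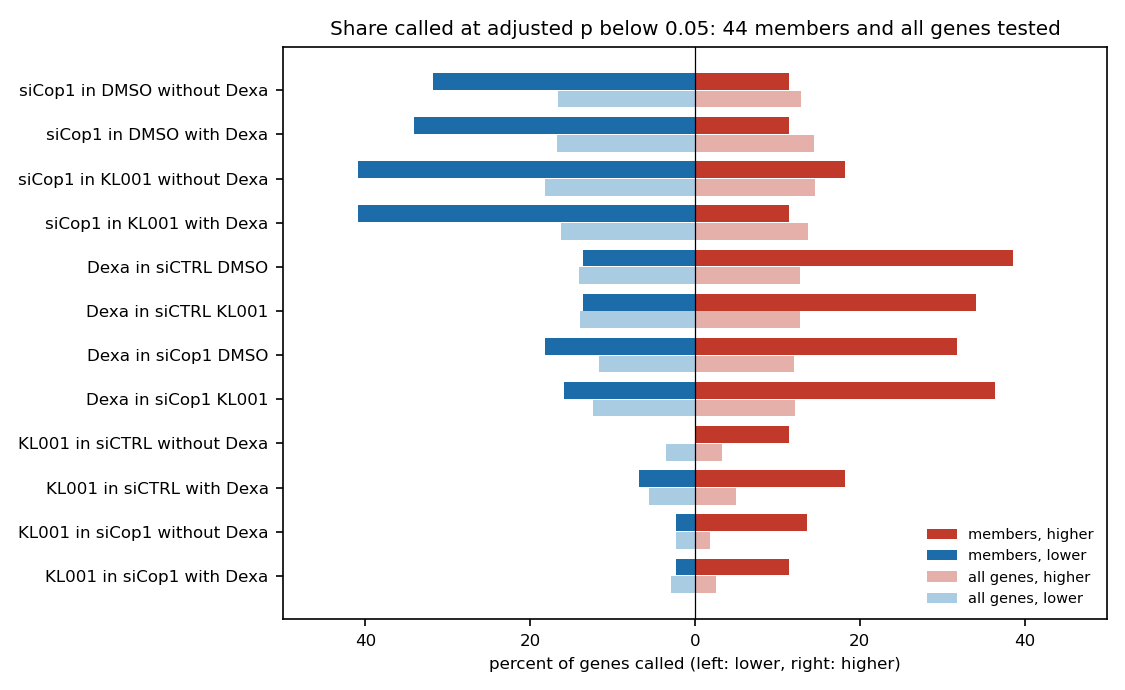
Percent of genes called higher (right) or lower (left) at an adjusted p below 0.05 in each of the 12 comparisons, for the 44 members tested (dark bars) and all 14772 genes tested (pale bars). With siCop1 the members' bars are longest on the lower side, 31.8% to 40.9%, and with Dexa on the higher side, 31.8% to 38.6%.

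The 4 siCop1 comparisons share no library with each other. There were 10 members lower in all 4 settings, 22.7% of the 44 beside 9.55% of all genes, and 2 higher in all 4, 4.55% beside 6.75%. By mean log2 change the 10 were Trp53i11 (-0.99), Rprm (-0.97), Cdkn1a (-0.52), Fdxr (-0.45), Tob1 (-0.41), Gadd45g (-0.39), Btg2 (-0.38), Perp (-0.38), Gadd45a (-0.23) and Sesn2 (-0.17). Both higher members, Cdkn2a (0.17) and Ei24 (0.14), changed by at most 0.20 in any setting. When the 4 marker-rich libraries were left out together, 8 of the 12 remained called in all 4 settings, each of them lower. The other 4, Gadd45g, Rprm, Cdkn2a and Ei24, each lost the call in 1 setting (adjusted p 0.0549, 0.0522, 0.315 and 0.127). In that fit, which keeps the siCTRL libraries of DMSO without Dexa, 13, 12, 14 and 19 members were lower and 5, 2, 6 and 3 higher in the 4 settings. The share of all genes called was not counted in that fit, so these counts cannot be set against it.

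**Figure D2:**
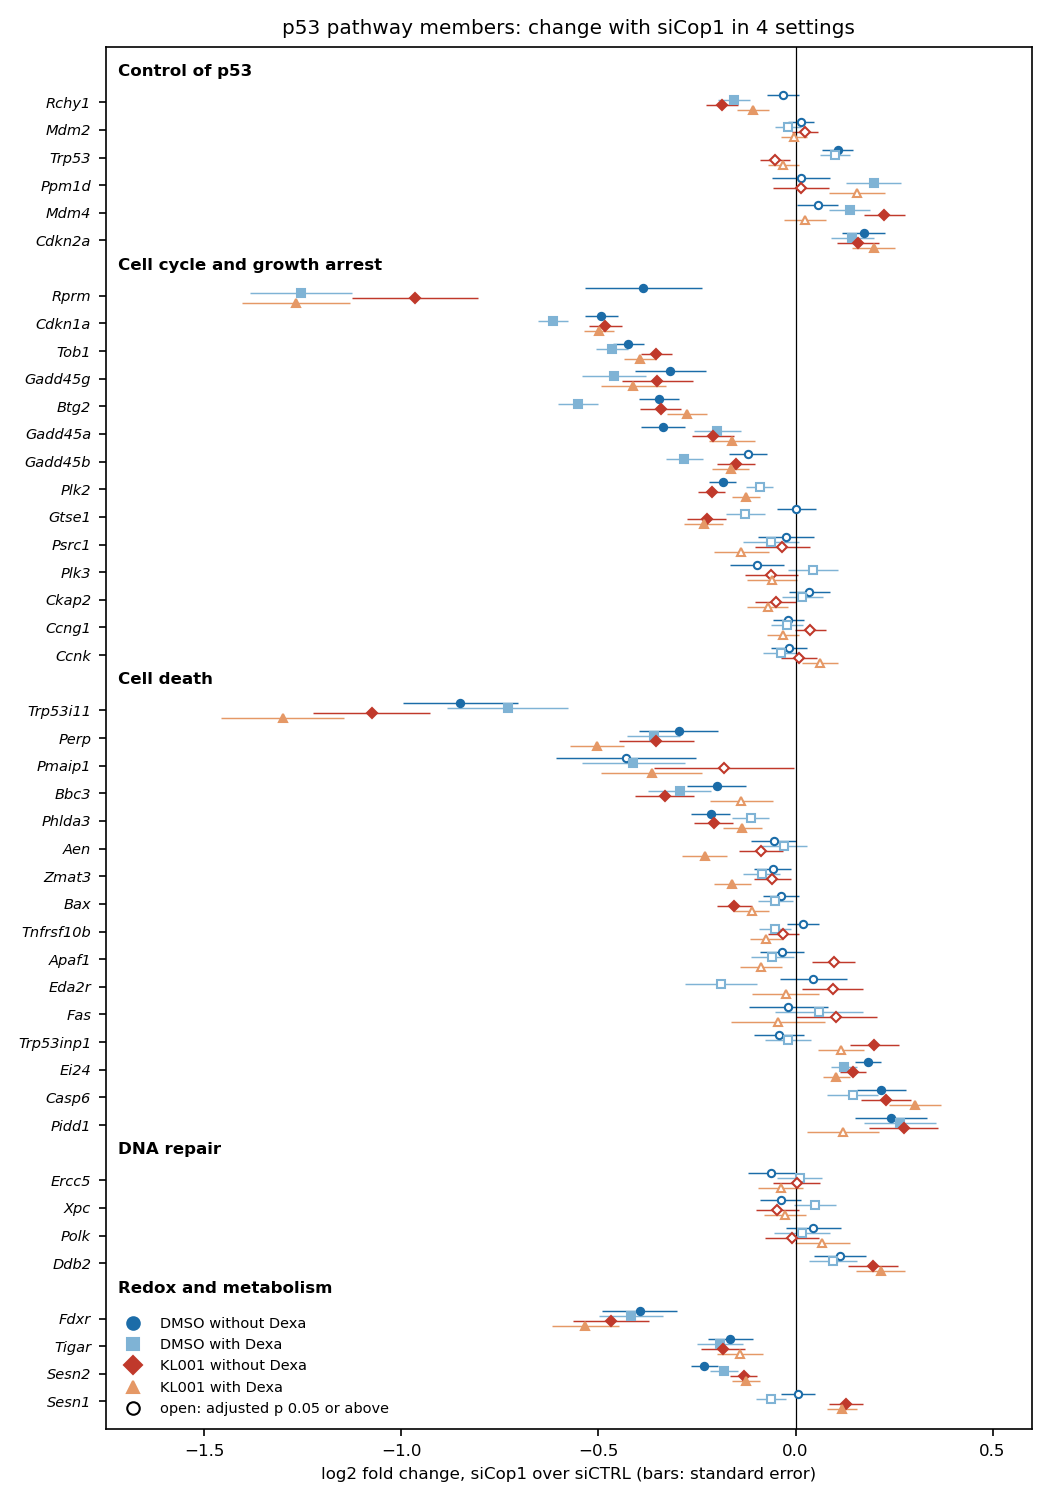
Log2 fold change of each of the 44 members tested with siCop1 against siCTRL (horizontal axis, bars are standard errors) in the 4 settings, grouped by role. Filled symbols are called at an adjusted p below 0.05. The cell cycle genes from Rprm to Gadd45a lie left of 0 in every setting, while Mdm2, Ccng1 and Ccnk lie around 0.

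Among the genes that control p53, Trp53 mRNA itself changed little. In DMSO without Dexa it was at 144.0, 152.1 and 143.0 CPM in siCTRL and at 154.2, 162.5 and 156.1 CPM in siCop1, and these groups do not overlap. The difference of 0.11 ± 0.04 (adjusted p = 0.0352) was the only one called, and it lost the call without siCTRL replicate 1 or 3 or siCop1 replicate 2 or 3 (adjusted p 0.11, 0.0905, 0.162 and 0.0569). In DMSO with Dexa the difference was 0.10 ± 0.04 (adjusted p = 0.0516), which RLE scaling and DESeq2 placed below the threshold (0.0466 and 0.0486), and with KL001 it was -0.05 ± 0.04 and -0.03 ± 0.04. The siCop1 effect on Trp53 was not called as different between KL001 and DMSO (adjusted p = 0.523 without and 0.631 with Dexa).

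Mdm2, the p53 target that encodes its main ligase, did not differ beyond the spread of the libraries in any setting. Its level was 71.96, 72.91 and 74.88 CPM in siCTRL and 71.62, 75.29 and 75.12 CPM in siCop1 in DMSO without Dexa. Over all 24 libraries it ran only from 71.62 to 79.2 CPM. The siCop1 differences were 0.015, -0.018, 0.024 and -0.004, and their 95% confidence intervals together run from -0.086 to 0.092 on the log2 scale. Ccng1, the cyclin G1 gene and another widely used p53 target, had differences of -0.02, -0.02, 0.04 and -0.03 and was not called in any setting either.

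Cdkn2a encodes p16 and, from another reading frame, the Mdm2 inhibitor p19Arf, and counts per gene cannot tell these products apart. It lies at chr4:89274471-89294653. Its level in DMSO without Dexa was 435.6, 384.6 and 378.0 CPM in siCTRL and 457.8, 452.1 and 441.7 CPM in siCop1. It rose by 0.17 ± 0.05 there (adjusted p = 0.017) and by 0.14, 0.16 and 0.20 in the other settings, with overlapping groups in KL001 without Dexa. The call in KL001 with Dexa held under every alternative run, and the others did not. In DMSO without Dexa it was lost without siCTRL replicate 2 or 3 or siCop1 replicate 1 (adjusted p 0.0585 to 0.0807). In DMSO with Dexa it was lost without siCTRL replicate 2 or 3 or any siCop1 replicate (0.0864 to 0.244), and in KL001 without Dexa without replicate 1 or 3 of either group (0.0525 to 0.138). Mdm4, a partner of Mdm2 that inhibits p53, was higher in 2 settings (0.14 in DMSO with Dexa and 0.23 in KL001 without Dexa), and the former call was lost without any 1 of its 6 libraries (0.0711 to 0.147) and without the marker-rich libraries (0.106). Ppm1d, a phosphatase that dampens p53 signalling, was higher in DMSO with Dexa (0.20), a call lost without siCTRL replicate 1 or 2 or siCop1 replicate 2 or 3 (0.0697 to 0.24). Rchy1, another ubiquitin ligase for p53, was lower in all settings but DMSO without Dexa (-0.16, -0.19 and -0.11). The last of these calls, in KL001 with Dexa, was lost without siCTRL replicate 2 or 3 or siCop1 replicate 1 or 3 (0.0778 to 0.205), and without the marker-rich libraries the adjusted p of Rchy1 was 0.0505 in DMSO with Dexa and 0.135 in KL001 with Dexa. The gene Thap6 on the opposite strand covers 18% of its exon bases.

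The cell cycle and growth arrest genes were lower or not called. Of 14 tested, 7, 7, 9 and 9 were lower in the 4 settings, which is 50%, 50%, 64.3% and 64.3%, beside 16.6%, 16.7%, 18.2% and 16.3% of all genes, and 0 were higher in any. Their median log2 change was -0.15, -0.16, -0.21 and -0.16.

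Cdkn1a, Tob1, Btg2, Rprm, Gadd45a and Gadd45g were the members of this group lower in all 4 settings. With DMSO alone Cdkn1a was at 72.68, 69.38 and 70.55 CPM in siCTRL and 49.93, 52.05 and 49.17 CPM in siCop1. With DMSO and Dexa it was at 169.6, 165.3 and 168.6 CPM against 112.8, 105.4 and 110.4 CPM. In KL001 without Dexa it was at 67.7, 72.45 and 66.99 CPM against 47.61, 48.04 and 52.49 CPM, and with Dexa at 151.3, 148.0 and 157.6 CPM against 104.4, 109.5 and 109.6 CPM. Every siCop1 library was below every siCTRL library of its setting. Cdkn1a fell, with changes of -28.9%, -34.7%, -28.4% and -29.2%, log2 changes of -0.49 ± 0.04, -0.62 ± 0.04, -0.48 ± 0.04 and -0.50 ± 0.04 (adjusted p 1.66e-10, 1.47e-13, 2.71e-10 and 2.11e-11). These calls held under all alternatives run. In siCTRL KL001 without Dexa, replicates 1, 2 and 3 held 0.855, 81.62 and 1.006 CPM of heart muscle markers. The same libraries had 67.7, 72.45 and 66.99 CPM of Cdkn1a, and the part of heart muscle RNA in the difference was not tested. An annotated gene on the opposite strand overlaps 7.68% of its exon bases, and nothing read here states whether counting used the strand.

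Tob1 and Btg2 belong to a family of antiproliferative proteins that promote the shortening of mRNA tails. Tob1 (chr11:94211454-94215495) was at 64.39, 62.89 and 65.3 CPM in siCTRL and at 47.66, 48.74 and 47.15 CPM in siCop1 in DMSO without Dexa. It fell, with changes of -25.5%, -27.5%, -21.7% and -23.9% in the 4 settings. Btg2 (chr1:134075170-134079120) was at 46.2, 46.67 and 49.26 CPM against 31.21, 33.16 and 32.56 CPM in DMSO with Dexa. Groups did not overlap for either gene in any setting, and all 8 calls held under the alternatives run. Btg2 fell, with changes of -21.4%, -31.8%, -21.1% and -17.3%.

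Rprm encodes reprimo, a small p53-induced protein linked to arrest before mitosis, from a single exon at chr2:54084093-54085552. It was a lowly expressed member. Its level in DMSO with Dexa was 9.185, 8.114 and 8.091 CPM in siCTRL and 3.764, 3.432 and 3.452 CPM in siCop1. In KL001 with Dexa it was at 6.942, 7.988 and 6.625 CPM against 2.588, 3.019 and 3.347 CPM. Rprm fell, with changes of -58.1% and -58.4% in these settings (log2 -1.25 ± 0.13 and -1.27 ± 0.14, adjusted p 6.38e-09 and 1.7e-08). In KL001 without Dexa it fell by 48.8%. In DMSO without Dexa it was at 3.715, 3.326 and 3.694 CPM against 2.72, 2.449 and 3.063 CPM, without overlap. That difference of -0.39 ± 0.15 (adjusted p = 0.0491) lost the call with RLE scaling (0.056), no filter (0.0659), DESeq2 (0.0885) and the replicate number as a block (0.0562). It also lost it without any 1 of siCTRL replicates 1, 2 and 3 and siCop1 replicates 1 and 2 (adjusted p 0.0559 to 0.186).

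The 3 Gadd45 genes encode small stress proteins that bind cell cycle and stress kinases. Gadd45a (chr6:67035096-67037457), the classical p53 target among them, was at 35.53, 34.56 and 34.68 CPM in siCTRL and 28.77, 27.4 and 26.84 CPM in siCop1 in DMSO without Dexa. It fell, with changes of -20.8%, -12.8%, -13.5% and -10.6%, with no overlap of groups. Its call in DMSO with Dexa was lost without siCop1 replicate 3 (adjusted p = 0.122), and that in KL001 with Dexa with DESeq2 (0.0649) or without siCTRL replicate 1 or 3 or siCop1 replicate 1 or 3 (0.0666 to 0.174). Another transcript on the opposite strand covers 19.1% of its exon bases. Gadd45g (chr13:51846678-51848468) was at 66.59, 57.02 and 55.52 CPM against 45.57, 41.72 and 43.07 CPM in DMSO with Dexa. It fell, with changes of -19.8%, -27.3%, -21.6% and -24.8%, and only the call in DMSO without Dexa was lost on leaving out 1 library, siCTRL replicate 1 (adjusted p = 0.0756). Gadd45b was lower in the 3 settings other than DMSO without Dexa (-0.28, -0.15 and -0.16). Its call in KL001 without Dexa was lost without siCTRL replicate 2 or 3 or siCop1 replicate 2 (0.0633 to 0.106) and without the marker-rich libraries (0.145), and that in KL001 with Dexa without siCop1 replicate 3 (0.0607).

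Of the other cell cycle members, Plk2, a polo-like kinase, was lower in 3 settings (-0.185, -0.213 and -0.125) and stood at -0.09 in DMSO with Dexa (adjusted p = 0.0501). Gtse1, a microtubule-binding protein of the late cell cycle, was lower in both KL001 settings (-0.225 and -0.233). Ccng1, Ccnk, Ckap2, Plk3 and Psrc1 were called in no setting.

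**Figure D3:**
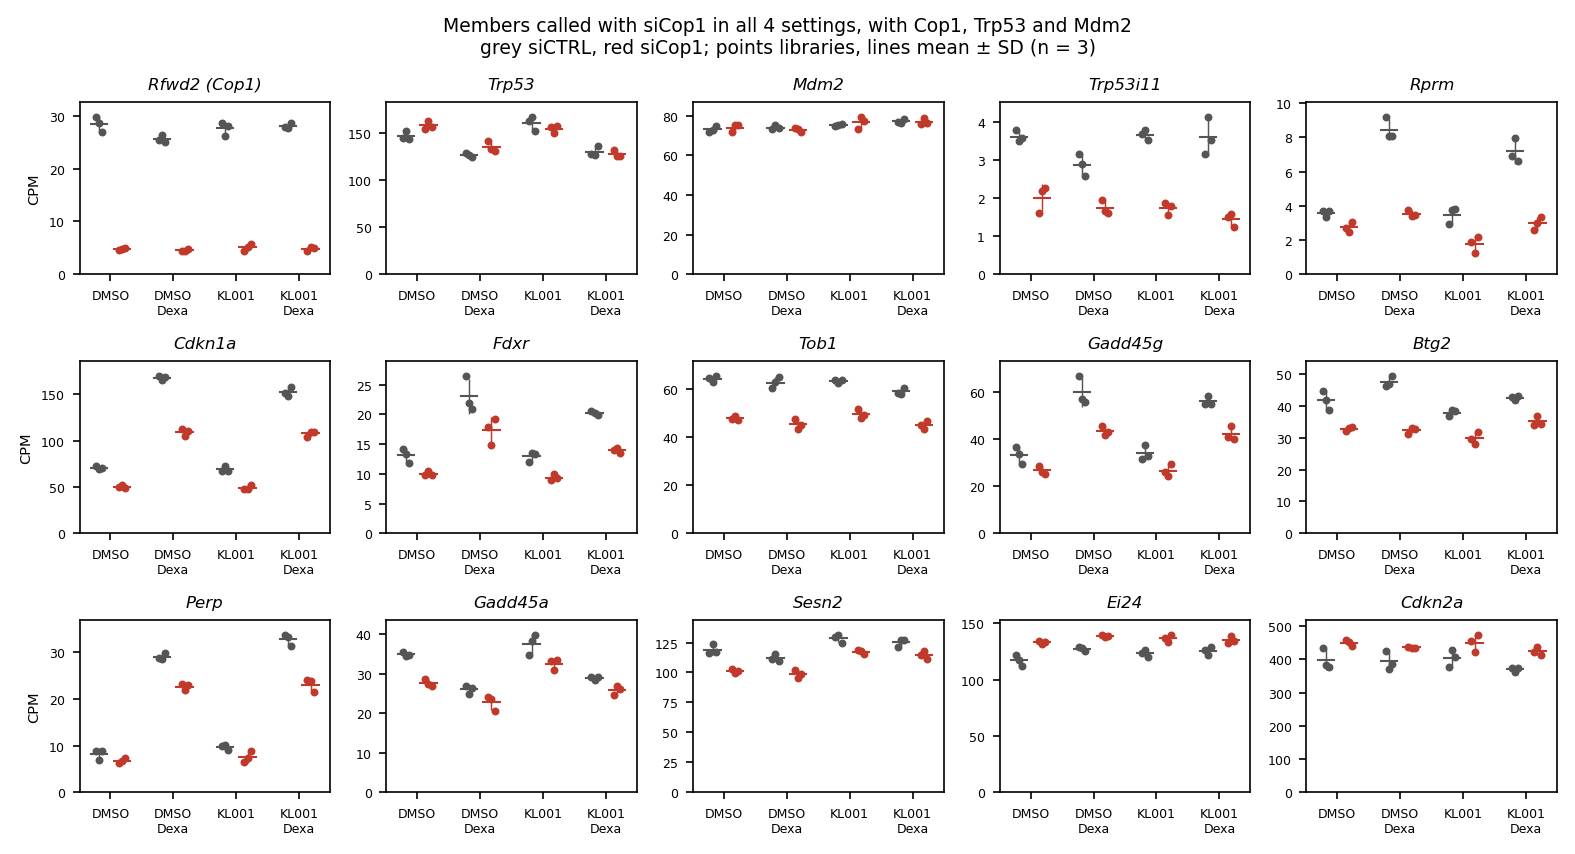
CPM (vertical axis, from 0) in each library for Cop1, Trp53, Mdm2 and the 12 members called with siCop1 in all 4 settings. Points are libraries and lines are mean ± SD (n = 3), siCTRL in grey and siCop1 in red; Cdkn1a in siCop1 lies below siCTRL in every setting, and Mdm2 stays between 71.62 and 79.2 CPM.

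Of the 16 cell death genes, 4, 4, 5 and 6 were lower, which is 25%, 25%, 31.2% and 37.5%, and 3, 2, 4 and 2 were higher, which is 18.8%, 12.5%, 25% and 12.5%. The shares of all genes were 16.3% to 18.2% lower and 12.8% to 14.5% higher. The remaining 9, 10, 7 and 8 were not called. Their median log2 change was -0.04, -0.06, -0.05 and -0.10.

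Trp53i11, a p53-induced gene whose product is a membrane protein of little-studied function, had the largest mean decrease. At chr2:93187548-93201759, it was at 3.788, 3.494 and 3.575 CPM in siCTRL and 1.602, 2.177 and 2.257 CPM in siCop1 in DMSO without Dexa. In KL001 with Dexa it was at 3.152, 4.126 and 3.539 CPM against 1.51, 1.587 and 1.255 CPM. Groups did not overlap in any setting. It fell, with changes of -44.5%, -39.7%, -52.5% and -59.4% (log2 -0.85 ± 0.15, -0.73 ± 0.15, -1.08 ± 0.15 and -1.30 ± 0.16), and all 4 calls held under the alternatives run.

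Perp, a p53 target that is also a component of desmosomes, the junctions of epithelial cells, was lower in all settings. It lies at chr10:18845020-18857073. Its level in DMSO with Dexa was 28.84, 28.55 and 29.73 CPM in siCTRL and 23.11, 21.86 and 22.95 CPM in siCop1. The siCop1 library with 84.84 CPM of squamous markers was the 1 with 23.11 CPM of Perp. Perp fell, with changes of -18.6%, -22.1%, -21.7% and -29.5%. The groups overlapped in DMSO without Dexa, where the call (adjusted p = 0.0246) was lost without siCTRL replicate 1 or 3 or siCop1 replicate 1 or 2 (0.133, 0.134, 0.114 and 0.0647). In KL001 without Dexa it was lost without siCop1 replicate 1 (0.0504).

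Ei24, an endoplasmic reticulum protein induced by p53, was higher in all 4 settings. It lies at chr9:36779159-36797393, and an annotated gene on the opposite strand covers 6.66% of its exon bases. In DMSO with Dexa it was at 128.5, 128.3 and 125.0 CPM in siCTRL and 139.2, 137.7 and 138.6 CPM in siCop1, and groups did not overlap in any setting. The rise was 13.5%, 8.85%, 10.6% and 7.5%. In KL001 with Dexa the call was lost with no filter (adjusted p = 0.12) and without siCTRL replicate 2 (0.133) or siCop1 replicate 2 (0.104).

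Among the direct mediators of apoptosis, Bax, which permeabilises mitochondria, was called in 1 setting, lower in KL001 without Dexa (-0.16 ± 0.05, adjusted p = 0.00767), and that call was lost without siCTRL or siCop1 replicate 2 (0.0639 and 0.0586) and without the marker-rich libraries (0.118). The annotated gene Gm45808 on the same strand covers 12.2% of the exon bases of Bax. Bbc3, which encodes Puma, was lower in 3 settings (-0.20, -0.29 and -0.33) and stood at -0.14 in KL001 with Dexa. Its call in DMSO without Dexa was lost without siCTRL replicate 1 or 2 or any siCop1 replicate (0.0619 to 0.181), and that in DMSO with Dexa without siCop1 replicate 2 (0.0606). Pmaip1, which encodes Noxa, was lower in both settings with Dexa (-0.41 and -0.365). In DMSO its call was lost without siCTRL replicate 3 or siCop1 replicate 1 (0.117 and 0.059) and without the marker-rich libraries (0.0573), and in KL001 without siCTRL replicate 1 or 3 or any siCop1 replicate (0.0528 to 0.179). Phlda3, an inhibitor of Akt signalling, was lower in the settings other than DMSO with Dexa (-0.215, -0.208 and -0.135), the last, in KL001 with Dexa, lost without siCTRL replicate 2 or 3 or siCop1 replicate 1 or 3 (0.0547 to 0.209).

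Some cell death genes were higher. Pidd1, a scaffold that activates caspase 2, and Casp6, an executioner caspase, were each higher in 3 settings, with values of 0.24 to 0.27 and of 0.22 to 0.30. No Pidd1 call held throughout: in DMSO without Dexa it was lost without any siCTRL replicate or siCop1 replicate 1 or 2 (0.0592 to 0.208), in DMSO with Dexa without siCTRL replicate 2 or 3 or any siCop1 replicate (0.0542 to 0.109) or without the marker-rich libraries (0.139), and in KL001 without Dexa without siCTRL replicate 1 or siCop1 replicate 2 or 3 (0.0639 to 0.147). Casp6 lost 1 call, in DMSO without Dexa, without siCTRL replicate 3 (0.0576). Trp53inp1, a stress protein that binds p53 and acts in autophagy, was higher in KL001 without Dexa (0.20), a call lost without siCTRL or siCop1 replicate 2 (0.13 and 0.102) and without the marker-rich libraries (0.103). Zmat3, a zinc finger protein that binds RNA, and Aen, a nuclease, were lower in KL001 with Dexa (-0.16 and -0.23), the former not without siCop1 replicate 2 (0.0623). The receptors Fas, Tnfrsf10b and Eda2r and the apoptosome scaffold Apaf1 were called in no setting.

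Of the 4 DNA repair genes, 1 was called. Ddb2, a sensor of ultraviolet damage, was higher in KL001 without Dexa (0.20) and with Dexa (0.22). The former call was lost without siCTRL replicate 1 or 3 or siCop1 replicate 3 (0.0537 to 0.0704) and the latter without siCTRL replicate 3 (0.0622), and an annotated gene on the opposite strand, Acp2, covers 23.8% of its exon bases. Xpc, Polk and Ercc5 were not called in any setting.

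Of the 4 genes of redox control and metabolism, Fdxr and Sesn2 were lower in all settings. Fdxr, the mitochondrial ferredoxin reductase, lies at chr11:115268024-115277050. In KL001 with Dexa it was at 20.63, 20.19 and 19.87 CPM in siCTRL and at 14.02, 14.4 and 13.48 CPM in siCop1, and no setting overlapped. Fdxr fell, with log2 changes of -0.40, -0.42, -0.47 and -0.53, and all 4 calls held under the alternatives run. Sesn2, a leucine sensor that restrains the growth kinase complex mTORC1, lies at chr4:132492032-132510501. It was at 116.0, 123.6 and 117.3 CPM against 103.0, 99.35 and 101.5 CPM in DMSO without Dexa. Sesn2 fell, with changes of -14.8%, -11.9%, -8.7% and -8.38% without overlap, and the call in KL001 without Dexa was lost in a fit of only the 6 libraries compared (adjusted p = 0.0511). Tigar, a phosphatase that lowers glycolytic flux, was lower in 3 settings (-0.17, -0.19 and -0.18). Its call in DMSO without Dexa was lost without replicate 2 or 3 of either group (0.0688 to 0.0907), and that in KL001 without Dexa without siCop1 replicate 1 (0.0532). Without the marker-rich libraries the adjusted p of Tigar was 0.0729 in DMSO with Dexa and 0.0501 in KL001 without Dexa.

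Sesn1, the paralog of Sesn2, was higher in both KL001 settings (0.13 and 0.12), losing 1 call or both without siCTRL replicate 2 (adjusted p 0.173 without and 0.102 with Dexa), siCop1 replicate 2 (0.117 and 0.0821), siCop1 replicate 3 without Dexa (0.0631) or siCTRL replicate 3 with Dexa (0.0505). Both were lost without the marker-rich libraries (0.121 without and 0.0668 with Dexa).

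Other genes of the pathway, in lists apart from the members, were counted the same way. These lists were chosen with earlier results of these data known, so they are no independent check. Of 34 further p53 targets, 9, 11, 7 and 9 were lower and 5, 6, 4 and 6 higher with siCop1 in the 4 settings. This list, which includes Bcl2 and Mcl1, was not sorted by whether p53 is known to raise or lower a gene. That is 26.5%, 32.4%, 20.6% and 26.5% lower, beside 16.6%, 16.7%, 18.2% and 16.3% of all genes, and 14.7%, 17.6%, 11.8% and 17.6% higher, beside 12.8%, 14.4%, 14.5% and 13.7%. In KL001 without Dexa the share was thus close to that of all genes. In all 4 settings 7 were lower and 3 higher, where 9.55% and 6.75% of all genes were. Those with the largest mean change were Igfbp3, a binding protein of insulin-like growth factors (-1.89), Gdf15, a stress-induced cytokine (-0.82), and Pltp, a phospholipid transfer protein (-0.48), all lower, and Steap3, an iron reductase (0.30), and Rap2b, a small GTPase (0.21), both higher. Igfbp3 was at 22.2 ± 1.08 CPM (SD, n = 3) in siCTRL and 3.86 ± 0.743 CPM in siCop1 in DMSO without Dexa.

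Of 19 regulators of p53, 1, 1, 2 and 3 were lower and 3, 2, 3 and 2 higher, or 5.26% to 15.8% lower and 10.5% to 15.8% higher, near or below the same shares of all genes. Hipk2, a kinase that phosphorylates p53, was higher in all 4 (mean 0.80), at 26.4 ± 4.80 CPM in siCTRL and 45.9 ± 2.18 CPM in siCop1 in DMSO without Dexa. Of 16 cell cycle genes that p21 represses through the DREAM complex, such as Ccnb1 and Cdk1, 0, 3, 7 and 10 were lower, or 0%, 18.8%, 43.8% and 62.5% beside the shares of all genes above, and 1, 1, 0 and 0 higher. Their median log2 change was -0.004, -0.003, -0.081 and -0.139.

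With Dexa, the called members were mostly higher. In siCTRL DMSO 23 of the 44 were called, or 52.3%, beside 26.8% of all genes, 17 higher and 6 lower. In siCTRL KL001 21 were called (47.7%, beside 26.8%), 15 higher, in siCop1 DMSO 22 (50%, beside 23.7%), 14 higher, and in siCop1 KL001 23 (52.3%, beside 24.5%), 16 higher. All genes were called higher in 12.7%, 12.7%, 12% and 12.1% and lower in 14.1%, 14%, 11.6% and 12.4%. Of the genes with a mean of at least 1 CPM, 30.3%, 30.2%, 26.5% and 27.7% were called. The members' median log2 change was 0.012, 0.058, 0.024 and 0.030. These 4 comparisons share no library with each other, but each shares libraries with the siCop1 comparisons, so the values of both are given side by side without relating them. There were 12 members higher in all 4 settings, 27.3% beside 7.85% of all genes, and 5 lower, 11.4% beside 7.31%.

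Sesn1 had the largest response. In siCTRL DMSO it was at 58.69, 54.01 and 53.98 CPM without and 248.6, 254.9 and 257.1 CPM with Dexa. The fold was 4.56, 4.50, 4.35 and 4.47 in siCTRL DMSO, siCTRL KL001, siCop1 DMSO and siCop1 KL001 (adjusted p at most 1.98e-26). Its paralog Sesn2 was called in none of the 4.

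Perp was at 8.91, 6.904 and 8.898 CPM without and 28.84, 28.55 and 29.73 CPM with Dexa in siCTRL DMSO, and its fold was 3.51, 3.40, 3.36 and 3.06. Pmaip1, at 2.092, 1.558 and 2.026 CPM without and 4.904, 5.438 and 6.417 CPM with Dexa, had folds of 2.93, 3.58, 2.97 and 3.15. Cdkn1a rose 2.37, 2.21, 2.17 and 2.18 fold, from 70.9 ± 1.68 to 167.8 ± 2.27 CPM (SD, n = 3) in siCTRL DMSO. Trp53inp1 rose 1.99, 2.0, 2.02 and 1.89 fold. For each of these genes every library with Dexa was above every library without it in its setting, and all of these calls held under the alternatives run.

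The remaining members higher with Dexa in all 4 settings were Gadd45g (mean log2 0.74), Fdxr (0.71), Plk3 (0.40), Gadd45b (0.33), Ercc5 (0.27), Phlda3 (0.22) and Apaf1 (0.21). In siCTRL KL001 Phlda3 was at 0.13 (adjusted p = 0.0495), and the adjusted p was 0.0546 with the replicate number as a block. Without replicate 1 or 3 of the group without Dexa, or 2 or 3 of that with Dexa, it was 0.0606 to 0.28. Apaf1 kept its call in siCTRL KL001. It lost it in siCop1 DMSO without any 1 of the 6 libraries (0.0687 to 0.142), in siCTRL DMSO without replicate 1 of the group without or 3 of that with Dexa (0.0937 and 0.0733), and in siCop1 KL001 without replicate 1 or 3 of the group without or 2 or 3 of that with Dexa (0.0757 to 0.157). Ercc5 lost it in siCop1 KL001 without replicate 1 of the group without Dexa (0.0672). Those lower in all 4 were Fas (-0.51), Bbc3 (-0.35), Gadd45a (-0.35), Tnfrsf10b (-0.29) and Trp53 itself (-0.25). The Fas call in siCop1 DMSO was lost without replicate 2 of the group without Dexa (0.0734), and the Bbc3 call in siCop1 KL001 without replicate 1 of the group without or replicate 2 of that with Dexa (0.0692 and 0.0825). Trp53 was at 144.0, 152.1 and 143.0 CPM without and 128.3, 125.8 and 123.6 CPM with Dexa in siCTRL DMSO. It fell, with changes of -14.0%, -18.8%, -14.4% and -17.5% over the 4 settings. Mdm2 was called in none of them, with differences of 0.012, 0.032, -0.020 and 0.004.

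**Figure D4:**
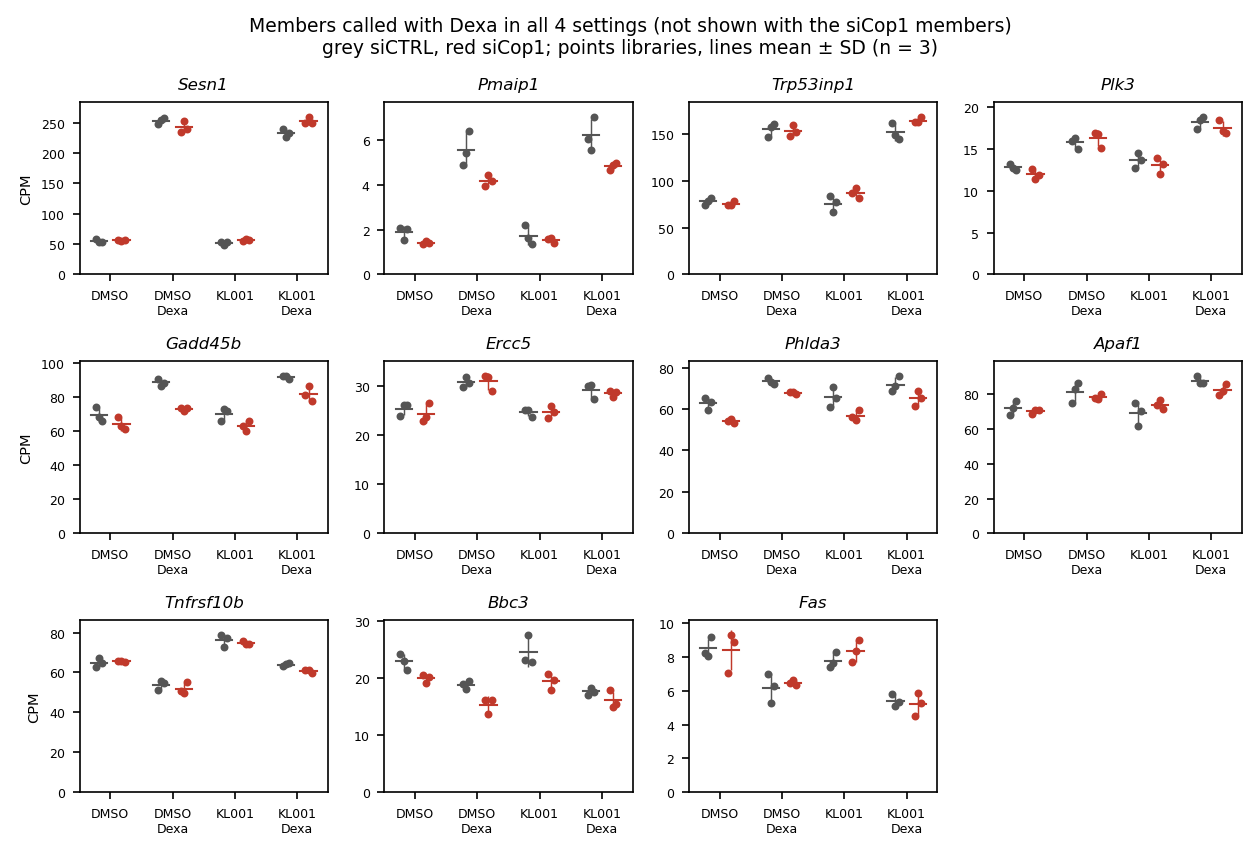
CPM (vertical axis, from 0) in each library for members called with Dexa in all 4 settings, other than Trp53 and those drawn with the siCop1 members. Points are libraries and lines are mean ± SD (n = 3), siCTRL in grey and siCop1 in red; Sesn1 rises from 53.98 to 58.69 CPM without Dexa to 248.6 to 257.1 CPM with it in siCTRL DMSO, while Fas, Bbc3 and Tnfrsf10b are lower with Dexa.

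For members described under both factors, whose comparisons share libraries, the values are set side by side. Mean log2 changes with Dexa and with siCop1 were 1.16 and -0.52 for Cdkn1a, 0.71 and -0.45 for Fdxr, 0.74 and -0.39 for Gadd45g, 1.74 and -0.38 for Perp, and -0.35 and -0.23 for Gadd45a. With both Dexa and siCop1 in DMSO, Cdkn1a stood at 109.5 ± 3.77 CPM, above siCTRL without Dexa (70.9 ± 1.68 CPM) and below siCTRL with Dexa (167.8 ± 2.27 CPM).

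Whether the Dexa effect differed with siCop1 was tested as an interaction. In DMSO, 1 of the 44 members was called, 2.27% beside 0.67% of all genes (0.291% with a higher and 0.379% with a lower interaction), and this was Rprm. Its level rose with Dexa from 3.58 ± 0.219 to 8.46 ± 0.625 CPM in siCTRL, while in siCop1 it went from 2.74 ± 0.308 to 3.55 ± 0.186 CPM, a difference that was not called. In a fit of only the libraries compared, that siCop1 difference was called higher. The interaction was -0.87 ± 0.20 (adjusted p = 0.0254). It was lost without siCTRL replicate 2 (0.0757) or siCop1 replicate 1 or 3 (0.0709 and 0.122) of DMSO without Dexa, and without siCTRL replicate 1 (0.0562) or siCop1 replicate 2 or 3 (0.0723 and 0.0772) of DMSO with Dexa. In KL001 the same interaction for Rprm was -0.30 ± 0.21 and not called, and 0 members were called there by edgeR, beside 0.562% of all genes (0.264% higher and 0.298% lower). DESeq2 called 0 there too. At an unadjusted p under 0.05 in edgeR there were 5 of the 44 members in DMSO and 2 in KL001. The share of all genes at that threshold was not counted, so these counts cannot be set against it.

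KL001 moved few of the members. In siCTRL without Dexa 5 of 44 were called (11.4%, beside 6.73% of all genes), all higher, where 3.22% of all genes were higher and 3.51% lower. In siCTRL with Dexa 11 were called (25%, beside 10.6%), 8 of them higher, where 4.98% of all genes were higher and 5.58% lower. In siCop1 without Dexa 7 were called (15.9%, beside 4.09%), 6 higher, beside 1.77% of all genes higher and 2.32% lower. In siCop1 with Dexa 6 were called (13.6%, beside 5.46%), 5 higher, beside 2.5% and 2.97%. Of the genes with a mean of at least 1 CPM, 7.78%, 12.3%, 4.8% and 6.37% were called. Without the 4 marker-rich libraries the counts were 3, 5, 9 and 4, and the share of all genes was not counted in that fit. In siCTRL without Dexa that fit sets DMSO libraries with heart muscle RNA against KL001 libraries with little of it, so KL001 and this RNA cannot be told apart. In siCTRL without Dexa a fit of only the 6 libraries compared called 1. Single libraries moved these small counts too. In siCTRL without Dexa 2 were called without DMSO replicate 1 and 3 without KL001 replicate 1 or 2, and with Dexa 7 without DMSO replicate 1 and 5 without KL001 replicate 2 or 3. In siCop1 without Dexa 4 were called on leaving out replicate 1 or 2 of either group, and 3 without DMSO replicate 3. With Dexa 3 were called without DMSO replicate 3 or KL001 replicate 1 or 2. These comparisons share libraries with those of siCop1 and Dexa.

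There were 3 members higher with KL001 in all 4 settings, 6.82% beside 0.751% of all genes, and 0 lower, beside 1.05%. Tnfrsf10b, the mouse receptor of the death ligand TRAIL, was at 62.8, 67.02 and 64.67 CPM in DMSO and 78.65, 72.78 and 77.44 CPM in KL001 in siCTRL without Dexa. It was higher by 17.8%, 18.7%, 13.8% and 16.8% in siCTRL without and with Dexa and siCop1 without and with Dexa, and all 4 calls held under the alternatives run.

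Eda2r, a receptor of the same family for an ectodysplasin ligand, was at 10.53, 13.39 and 12 CPM in DMSO and 16.62, 14.06 and 14.89 CPM in KL001 in siCTRL without Dexa. It was higher by 27.5%, 23.1%, 31.9% and 38.0%, without overlap. A fit of only those 6 libraries (adjusted p = 0.101), or omission of the first DMSO replicate (0.0697), ended that call. With Dexa in siCTRL, omitting DMSO replicate 1 (0.124) or any 1 of the KL001 replicates (0.0514 to 0.0783) ended it, as did omission of the marker-rich libraries (0.0515).

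Sesn2 was higher with KL001 by 8.06%, 11.9%, 15.8% and 16.3%. In siCTRL without Dexa that call (adjusted p = 0.045) was lost with no filter (0.117), with only the 6 libraries compared (0.323), and when replicate 1 or 3 of DMSO, or 1 or 2 of KL001, was left out (0.0891 to 0.159), and without the marker-rich libraries (0.144). Trp53 was higher in siCTRL without Dexa alone among the 4 (0.13 ± 0.04, adjusted p = 0.0416), a call lost with only those 6 libraries (0.293) and when replicate 1 or 3 of DMSO, or 1 or 2 of KL001, was left out (0.0924 to 0.172), and without the marker-rich libraries (0.172). For both genes, the last omission keeps the heart muscle RNA of the DMSO libraries, so it gives no cleaner comparison. Cdkn1a was lower in siCTRL with Dexa (-0.14 ± 0.04, adjusted p = 0.0134), a call lost without KL001 replicate 2 (0.0877) and without the marker-rich libraries (0.0615), and not called in the other 3. Mdm2 was called in none of the 4, with differences of 0.042, 0.062, 0.051 and 0.076 and 95% confidence intervals that together run from -0.026 to 0.144. No interaction of siCop1 and KL001 was called for any member by edgeR, without Dexa (0% of all genes called) or with Dexa (0.0677%, of which 0.0338% higher and 0.0338% lower), and DESeq2 called 0 in either. At an unadjusted p under 0.05 in edgeR there were 7 of the 44 members without and 6 with Dexa. The share of all genes at that threshold was not counted, so these counts cannot be set against it.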

How the data were processed

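The authors deposited raw read counts per gene for 24 libraries, made from stranded mRNA libraries read as short single reads, per the labels' protocols; the submitters' processing notes name STAR 2.4.5a, featureCounts of Subread 1.4.6-p3 and GRCm38. The deposited normalized table was not used. Genes passing filterByExpr (minimum count 10, minimum total 15) were scaled by TMM and fitted in R 4.3.3 with edgeR 4.0.16 on all 24 libraries with 1 mean per group, giving 12 comparisons and 4 interactions, two-sided. Simulated data were used as a check. The members and lists were chosen with earlier results of these data known. Genes described in full were Cop1, Trp53, Mdm2 and Cdkn1a, members called with siCop1 in all 4 settings, of such members with Dexa and with KL001 the 5 with the largest mean change, members with a called interaction, and up to 3 higher and 3 lower genes of the further lists by mean change in all 4 siCop1 settings; other members are given by value or range. Alternatives were RLE scaling, no filter, DESeq2 1.42.0, a replicate block, only the libraries compared, and leaving out each library. A joint omission of 4 libraries was added after seeing the data. Replicate numbers share no stated source. Same-numbered libraries deviated together, with all 3 correlations over 0.1, only in siCTRL KL001 with against without Dexa (0.165 to 0.464) and in siCTRL with Dexa for KL001 against DMSO (0.167 to 0.368). Promoters are from RefSeq (GRCm38.p6), and gene positions from GENCODE.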

Additional observations from a re-analysis of the deposited data

Results flagged for a closer look

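The response of Rprm to Dexa in DMSO differed between siCTRL and siCop1 by a test of the difference itself, an interaction of -0.868 on the log2 scale (edgeR, adjusted p = 0.0254). All 3 siCTRL libraries with Dexa (8.091 to 9.185 CPM) lay above all other libraries of the DMSO groups (2.449 to 3.764 CPM). Leaving out any 1 of 6 libraries, named beside the result above, raised the adjusted p to between 0.0562 and 0.122.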

How the results depend on the processing

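Of 206 calls of members, 135 held under every alternative run: 50 of 88 with siCop1, 74 of 89 with Dexa and 11 of 29 with KL001. Counts of called members stayed within 1.5 times the main count, except with KL001 in siCTRL without Dexa (1 with only the libraries compared and 3 with the 4 marker-rich libraries left out, main 5), with KL001 in siCTRL with Dexa (5 with those libraries left out, main 11), and for the interactions (2 with no filter, which adds Trp53inp1 for siCop1 by KL001 without Dexa at adjusted p = 0.0471, main 1), and when single libraries were left out. The cause was not tested. Leaving out 1 library gave 13 to 16, 15 to 21, 21 to 24 and 17 to 22 called members for siCop1 (main 19, 20, 26 and 23), 21 to 23, 19 to 23, 20 to 21 and 18 to 23 for Dexa (main 23, 21, 22 and 23), 2 to 6, 5 to 8, 3 to 5 and 3 to 5 for KL001 (main 5, 11, 7 and 6) and 0 to 1 interactions (main 1), each fit having fewer libraries. Of the members called in all 4 settings, 10 to 11 of 12 for siCop1, 15 to 17 of 17 for Dexa and 1 to 3 of 3 for KL001 were shared with RLE scaling, no filter, DESeq2, the block and only the libraries compared.

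With the replicate number as a block, the siCop1 comparisons called 18, 20, 26 and 23 members and those of KL001 5, 12, 7 and 6. The block took Rprm out of the members called in all 4 siCop1 settings and brought in Plk2, and it ended 4 calls in all: Rprm (0.0562), Mdm4 in DMSO with Dexa (0.0562) and Rchy1 in KL001 with Dexa (0.0551) with siCop1, and Phlda3 with Dexa in siCTRL KL001 (0.0546).

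Only uncalled differences near 0 changed sign. For Mdm2 with siCop1 in KL001, leaving out single libraries gave 0 to 0.054 without Dexa and -0.021 to 0.006 with Dexa, and with Dexa it was 0.001 with RLE scaling and 0.002 with DESeq2 and with only the libraries compared. For Mdm2 with Dexa the same omissions gave -0.001 to 0.041 in siCTRL DMSO and -0.026 to 0.028 in siCop1 KL001, and no filter gave -0.006 in the latter. For Cdkn1a with KL001 in siCop1 with Dexa they gave -0.049 to 0. Depth limits the lowest members, such as Trp73, which could not be tested.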
